A study of Mus musculus with 4 samples.

Results

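A set of 10 long non-coding RNAs that carry established names was followed in macrophages of MC38 tumours: Malat1, Neat1, Kcnq1ot1, Norad, Gas5, Snhg1, Snhg12, Snhg15, Mir155hg and Pvt1. They were chosen by symbol as nuclear-retained RNAs and as host genes of small nucleolar RNAs (snoRNAs) or microRNAs, except Norad, a mostly cytoplasmic RNA. All 10 matched an identifier among the 53379 of the count table, and all 10 passed the filter on low counts that left 18422 genes for testing. Norad was matched through the older name 2900097C17Rik, which RefSeq lists as its synonym at the same place. The annotation classes these genes as lincRNA, antisense or processed transcript, and none of them as protein-coding.

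The macrophages were sorted as positive for CD45, CD11b and F4/80 from tumours of C57BL/6J mice 21 days after implantation of MC38, a mouse colon carcinoma line. The 2 groups were mice fed a high-fat diet (HFD) and mice fed a control diet (CD), with 2 mice and 1 library per mouse in each. Both groups carried the same tumour model and no genetic change is labelled, and the make-up of the diets and the time on them are not described here. PolyA RNA was sequenced, which takes RNAs with a tail or an internal run of A.

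Long non-coding RNAs act as RNA and not through a protein. Malat1 and Neat1 stay in the nucleus, Malat1 in the speckles that hold splicing factors and Neat1 as the scaffold of paraspeckles, and Kcnq1ot1 stays at the imprinted domain that it silences in cis on the paternal chromosome. Norad lies mostly in the cytoplasm and binds Pumilio proteins, which repress the mRNAs they bind. Gas5 and the Snhg genes are spliced to release snoRNAs from their introns, and their exon products are degraded during translation by nonsense-mediated decay. Mir155hg yields miR-155, a microRNA induced in activated macrophages, and Pvt1 lies beside the gene of the transcription factor Myc.

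Sequences are shown where they bear on how these RNAs are caught or what they bind. They are from RefSeq or from GENCODE mouse release 21, both on GRCm38, and are written 5′ to 3′. Malat1 ends in the cell in a triple helix built from U-rich stretches and an A-rich tract, not in a polyA tail. Its longest run of A, in capitals, covers 12 bases of the 6983-base transcript (positions 6674 to 6685, counted from the 5′ end). The stretch printed is chr19:5795928-5796089, minus strand.
Malat1: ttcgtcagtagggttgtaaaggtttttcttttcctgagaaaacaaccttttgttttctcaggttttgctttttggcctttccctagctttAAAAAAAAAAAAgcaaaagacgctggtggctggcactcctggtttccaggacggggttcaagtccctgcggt

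A run of A at least this long occurred in 23.1% of the 779 longest transcripts per gene that lay within 500 bases of the length of Malat1. The longest run was 41 bases in Kcnq1ot1, 12 in Snhg12, 9 in Pvt1 and 7 in Neat1, Norad and Mir155hg. It was 5 in Gas5 and Snhg1 and 3 in Snhg15. Whether any of these runs, that of Malat1 included, served in capture was not tested. Norad held 11 matches to the Pumilio motif TGTANATA, searched on the RNA strand alone and counting overlaps. Of 2372 transcripts within 500 bases of its length, 42.8% held at least 1 match. Only 2, Norad included, held at least as many as Norad, and the other held 15. The closest pair is printed, with the matches in capitals (positions 2382 to 2518 of 4915, chr2:156390462-156390598, minus strand).
Norad: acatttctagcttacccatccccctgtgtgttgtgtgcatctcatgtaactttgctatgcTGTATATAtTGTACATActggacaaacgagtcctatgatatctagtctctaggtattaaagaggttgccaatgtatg

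The snoRNA hosts are known for starts of the 5′ terminal oligopyrimidine kind, which tie translation to growth signals. A C within 3 bases of the RefSeq start and followed by at least 4 bases that are C or T was searched on the transcribed strand, and 11.5% of 32851 start windows held one. The windows run from 20 bases before the start to 30 bases from it on, with the tract in capitals. A tract was found at the second of the listed starts of Gas5, not at its first, and at the start of Snhg12, and not at those of Snhg1 and Snhg15.
Gas5 (chr1:161035146-161035195): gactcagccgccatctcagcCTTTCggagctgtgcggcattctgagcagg
Snhg12 (chr4:132308658-132308707): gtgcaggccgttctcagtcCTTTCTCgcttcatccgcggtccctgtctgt
Snhg1 (chr19:8723467-8723516): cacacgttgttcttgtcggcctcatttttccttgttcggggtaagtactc
Snhg15 (chr11:6528731-6528780): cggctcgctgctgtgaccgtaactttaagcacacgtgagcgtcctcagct

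Mir155hg carries 1 microRNA, whose main arm is printed with its seed, bases 2 to 8, in capitals (chr16:84714143-84714165, plus strand).
mmu-miR-155-5p: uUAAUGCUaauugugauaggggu

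Libraries held 34148682 to 37159552 counts. Values below are CPM, counts per 1000000 of the TMM-scaled library, and folds are high-fat diet against control diet from edgeR's quasi-likelihood test over all genes, with Benjamini-Hochberg adjustment and a call at an adjusted p below 0.05. The titles name separate mice. With 2 mice per diet, p-values rest on the spread between these few animals and on variance information shared across genes. All 15 macrophage markers had counts, and edgeR called 0 of them different between the diets (6 higher and 2 lower without CD mouse 2). Their summed level was 17608 and 18543 CPM in the HFD and 15622 and 18399 CPM in the CD libraries.

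None of the 10 RNAs was called different between the diets by edgeR, where 10.5% of all tested genes were called (2.61% higher and 7.91% lower, and 7.86% in either direction among genes of an average log2 CPM of at least 3). At an unadjusted p below 0.05 there were 2, Malat1 and Kcnq1ot1, both lower in the HFD libraries, where 31.3% of all genes passed that limit and 17.7% passed it with lower values. DESeq2 called the same 2 RNAs lower and none higher, where it called 14.4% of its genes in either direction and 9.11% lower. The 10 RNAs had a median log2 fold change of -0.13, with 4 positive and 6 negative, and the median over all tested genes was 0.00. In 5 of the 10 the diets did not overlap, against 63.8% of all tested genes, a share near that of the members. Norad and Gas5 (2 of 10) lay higher in both HFD libraries, where 32.2% of all genes did, and Malat1, Kcnq1ot1 and Snhg1 (3 of 10) lay lower, where 31.6% did. The plot of CPM by library shows these levels, and the plot of fold changes their intervals.

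**Figure D1:**
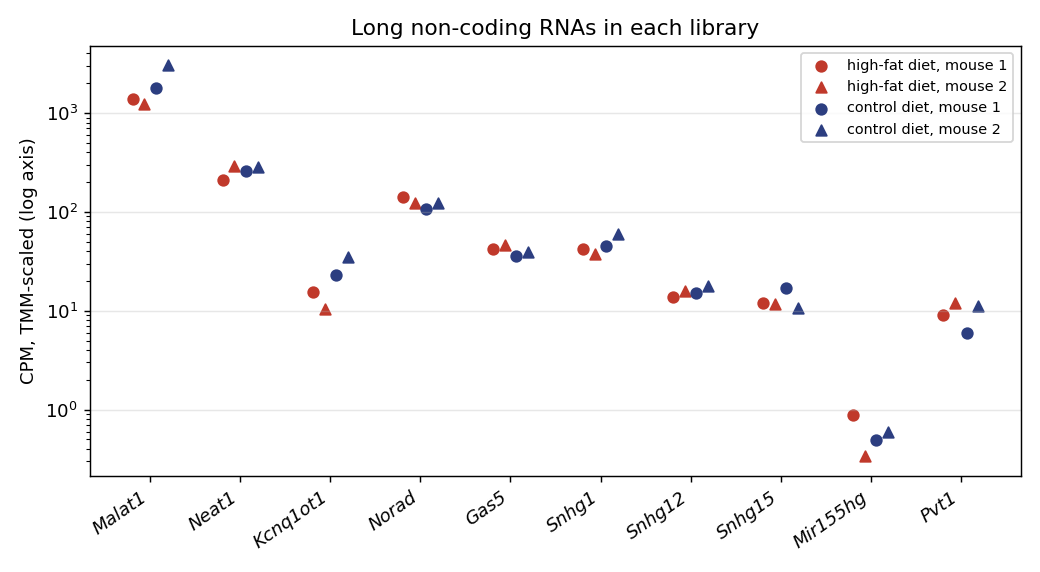
Each point is the CPM (TMM-scaled, log axis) of 1 long non-coding RNA in 1 library, red for the high-fat diet and blue for the control diet, with circles for mouse 1 and triangles for mouse 2. Malat1 and Kcnq1ot1 lie lower in both red libraries than in both blue ones, and Malat1 is highest in CD mouse 2 at 3024 CPM.

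Malat1 was the most abundant of the 10 and was lower in both HFD libraries. It had 1399 and 1246 CPM in HFD mice 1 and 2, and 1781 and 3024 CPM in CD mice 1 and 2. The diets did not overlap, and CD mouse 2 stood far above the other 3 libraries. In these bulk samples, fewer cells of a type and less RNA per cell cannot be told apart. Malat1 took 0.129 to 0.169% of all counts in those 3 libraries and 0.303% in CD mouse 2. The log2 fold change was -0.86 (SE 0.27, 95% interval -1.52 to -0.20, edgeR adjusted p = 0.0926). Without CD mouse 2 it was -0.43 (adjusted p = 0.13), and without CD mouse 1 it was -1.19 and passed the threshold (adjusted p = 0.00906). DESeq2 gave -0.85 with an adjusted p of 0.0155. The gene lies on chromosome 19 from 5795690 to 5802672, minus strand, in GENCODE release 21, which holds a newer version of this identifier than the count table.

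Neat1, which lies 22 kb from Malat1 on the same strand (chromosome 19, 5824708 to 5845478, newer version likewise), did not share that order. Its values were 211 and 288 CPM in the HFD and 261 and 283 CPM in the CD libraries. The diets overlapped, with the lowest and the highest library both on the high-fat diet. The log2 fold change was -0.12 (SE 0.19, interval -0.59 to 0.34, edgeR adjusted p = 0.693), and it turned to 0.10 without HFD mouse 1. Counts of Malat1 were 6.62 and 4.33 times those of Neat1 in the HFD libraries, and 6.82 and 10.7 times in the CD ones. This ratio was lower by 0.67 on the log2 scale on the high-fat diet (difference -0.67), at a two-sided exact permutation p of 0.333, the smallest that 2 mice against 2 can give. The long form of Neat1, which builds paraspeckles, and the short polyadenylated form share their 5′ part, and a count per gene does not separate them.

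Kcnq1ot1 had the largest fold of the 10. It is a single exon of 93.1 kb in the annotation (chromosome 7, 143203458 to 143296549, minus strand, newer version likewise) that runs antisense through Kcnq1, a potassium channel gene. It had 15.5 and 10.4 CPM in HFD mice 1 and 2, and 23.1 and 34.9 CPM in CD mice 1 and 2. All values of one diet lay below all values of the other, with CD mouse 2 again the highest. The log2 fold change was -1.16 (SE 0.28, interval -1.84 to -0.48, edgeR adjusted p = 0.0512), which missed the threshold for a call. DESeq2 called it lower (log2 fold change -1.15, adjusted p = 0.00278). Fits without CD mouse 1 (adjusted p = 0.0122) and without CD mouse 2 (0.0432) called it too, while those without HFD mouse 1 (0.079) or 2 (0.192) did not. With the mouse number as a block, adjusted p was 0.0432. The numbers are not known to pair mice of different diets.

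Counts given to Kcnq1 moved the same way. Kcnq1 held 5 and 4 counts in the HFD and 33 and 31 counts in the CD libraries, and fell 7.59-fold (log2 fold change -2.92, SE 0.52, edgeR adjusted p = 0.0283). That call ended without either HFD mouse (adjusted p = 0.164 and 0.161). The strand setting of the counting is not given in the sources used here, so reads of Kcnq1 and of its antisense partner cannot be told apart. Kcnq1ot1 held 116 and 100 times the counts of Kcnq1 in the HFD libraries, and 22.7 and 41.9 times in the CD ones. Among the 13 tested genes of the imprinted domain, Kcnq1 alone was called, where 10.5% of all tested genes were. The median log2 fold change of the 13 was -0.09. Leaving out CD mouse 1 gave 1 gene called higher and 2 called lower, and leaving out CD mouse 2 gave 2 and 1. Cdkn1c, an inhibitor of the cell cycle and the best known target of silencing by Kcnq1ot1, had 0.908 and 1.38 CPM against 1.76 and 3.04 CPM (log2 fold change -1.07, SE 0.41, adjusted p = 0.143). The taste and chemosensory channel gene Trpm5 had 0.0801 and 0.469 against 0.74 and 1.67 CPM (adjusted p = 0.136), and Osbpl5 had 10.7 and 10.5 against 8.29 and 5.05 CPM (adjusted p = 0.16).

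**Figure D2:**
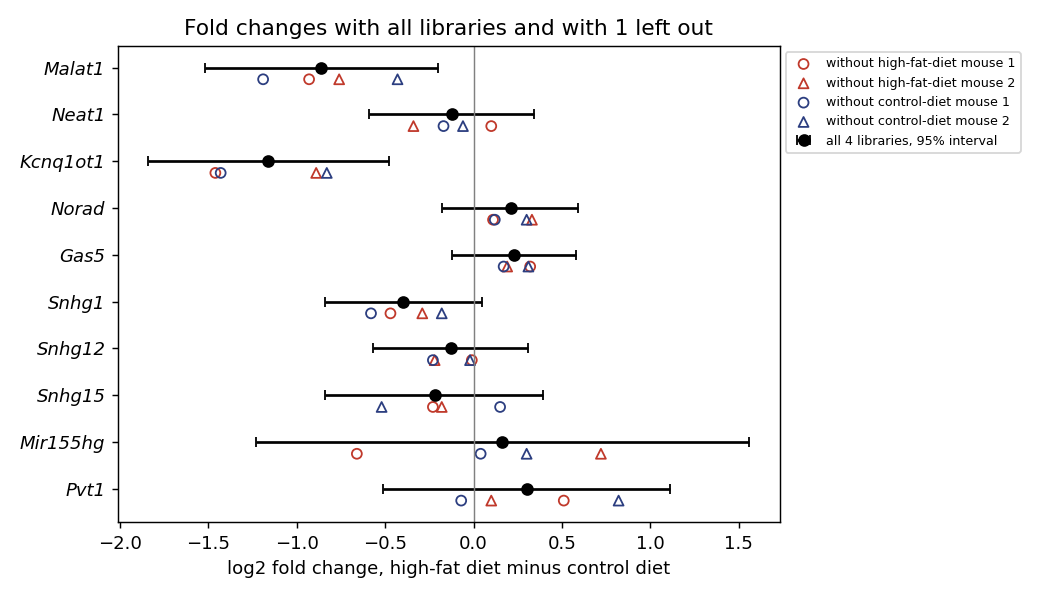
Black points are log2 fold changes of high-fat diet minus control diet with 95% intervals from the fit on all 4 libraries, and open symbols are fits with 1 library left out (red for a HFD mouse, blue for a CD mouse). The intervals of Malat1 and Kcnq1ot1 lie below 0, those of the other 8 include it, and open symbols of Neat1, Snhg15, Mir155hg and Pvt1 fall on both sides of 0.

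The TEC and sense intronic classes had the order of libraries seen in Malat1 and Kcnq1ot1, with HFD mouse 2 lowest and CD mouse 2 highest. Genes of the class TEC (to be experimentally checked) took 0.0863 and 0.0811% of the counts in HFD mice 1 and 2, and 0.104 and 0.141% in CD mice 1 and 2. Sense intronic genes took 0.00973, 0.00912, 0.0106 and 0.0143% in the same order. The antisense class (0.115 and 0.119% against 0.133 and 0.142%) and snoRNA genes (0.00489 and 0.0054% against 0.0059 and 0.00741%) were also lower on the high-fat diet, with HFD mouse 1 lowest. Lower shares were not general. All annotated long non-coding genes other than those followed here took 0.887 and 0.843% in the HFD and 0.767 and 0.874% in the CD libraries. There the diets overlapped, with HFD mouse 1 highest and CD mouse 1 lowest. The part of these class shares in the values of Malat1 and Kcnq1ot1 was not tested.

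The proteins of nuclear speckles and paraspeckles showed few calls by edgeR, where 10.5% of all tested genes were called. Of 23 speckle proteins edgeR called 0 in either direction (1 higher and 1 lower without CD mouse 2), with a median log2 fold change of -0.07. Srrm2, a scaffold of the speckle, had 617 and 617 CPM against 930 and 931 CPM (log2 fold change -0.59, SE 0.15, adjusted p = 0.0571). The splicing factor gene Srsf1 had 273 and 190 CPM against 131 and 160 CPM (0.67, SE 0.22, adjusted p = 0.1). DESeq2 called Srrm2 (adjusted p = 0.0149) and Srsf1 (0.0386), and not Rbm25 (0.131) or Dyrk1a (0.253). Of 25 paraspeckle proteins 1 rose and 0 fell, with a median of 0.32, and 15 lay higher in both HFD than in both CD libraries (32.2% of all tested genes did so). The one that rose was Zc3h6, a zinc finger gene, from 3.11 and 3.49 to 7.58 and 7.32 CPM (log2 fold change 1.17, SE 0.23, adjusted p = 0.0329). Core components differed in sign, Nono with 178 and 155 against 128 and 135 CPM (0.34, adjusted p = 0.183) and Sfpq with 393 and 358 against 497 and 500 CPM (-0.41, adjusted p = 0.129). Tardbp had 196 and 158 against 102 and 118 CPM (0.69, adjusted p = 0.0571). DESeq2 called Zc3h6 (adjusted p = 0.00385) and Tardbp (0.0131), and not Cirbp (0.0817) or Fam98a (0.103). The call of Zc3h6 ended without either HFD mouse (adjusted p = 0.195 and 0.148), and 7 of the 25 were higher without CD mouse 2.

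Norad varied little between the libraries. It had 142 and 123 CPM in the HFD and 108 and 122 CPM in the CD libraries, so HFD mouse 2 and CD mouse 2 were nearly level. The log2 fold change was 0.21 (SE 0.16, interval -0.18 to 0.59, edgeR adjusted p = 0.41). The gene is a single exon of 4915 bases on chromosome 2 from 156388065 to 156392979, minus strand. Its partner Pum2 had 205 and 162 against 145 and 188 CPM and was not called (log2 fold change 0.14, edgeR adjusted p = 0.66). Of the 8 partners tested, cohesin subunits included, edgeR called 0 in either direction (2 higher and 1 lower without CD mouse 2), and the median was 0.18. The cohesin gene Rad21 came nearest, with 325 and 252 against 169 and 184 CPM (log2 fold change 0.71, SE 0.18, adjusted p = 0.0571). DESeq2 called Rad21 (adjusted p = 0.00975), and not Rbmx (0.267) or Smc3 (0.228).

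The 4 snoRNA hosts did not move as 1 group. Gas5 had 42.1 and 46.1 CPM in the HFD and 35.7 and 39.4 CPM in the CD libraries, and the diets did not overlap. Its log2 fold change was 0.23 (SE 0.14, interval -0.12 to 0.58, edgeR adjusted p = 0.313). Snhg1 went the other way, with 42.1 and 37.2 against 44.9 and 59.5 CPM and no overlap (log2 fold change -0.40, SE 0.18, interval -0.84 to 0.05, adjusted p = 0.195).

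Snhg12 and Snhg15 overlapped between the diets. Snhg12 had 13.8 and 16 against 15.1 and 17.6 CPM (log2 fold change -0.13, interval -0.57 to 0.31, edgeR adjusted p = 0.659). Snhg15 had 12 and 11.6 against 16.9 and 10.7 CPM (-0.22, interval -0.84 to 0.39, adjusted p = 0.586), and its spread lay between the CD mice. Without CD mouse 1 the log2 fold change of Snhg15 was 0.15. The hosts lie at chromosome 1, 161034422 to 161038539 (Gas5), chromosome 19, 8723475 to 8726443 (Snhg1), chromosome 4, 132308623 to 132311024 (Snhg12, newer version), and chromosome 11, 6525591 to 6528760 (Snhg15).

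The snoRNA identifiers inside the hosts held no counts. Inside the 4 hosts and on their strand the table lists 24 snoRNA identifiers, 10 in Gas5, 8 in Snhg1, 5 in Snhg12 and 1 in Snhg15, and each held 0 counts in every library. Some mitochondrial genes that every cell uses are listed at 0 too, so these zeros need not mean absence. By counting alone a 0 allows up to 3 counts, 0.0781 to 0.0924 CPM depending on the library and for counting error only. This bound does not limit the level of a snoRNA whose reads were not caught or not counted. Of the 1507 snoRNA identifiers in the whole table, 321 held any count. Whether reads that lie in a snoRNA and in a host exon were dropped from the counting is not given in the sources used here. The joined exons of Snhg1 and Snhg12 cover the whole gene, so any read in their snoRNAs also lies in a host exon.

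Other snoRNA hosts were also mostly not called by edgeR, where 10.5% of all tested genes were called. Of 35 tested, 0 rose and 1 fell, with a median log2 fold change of 0.04. The one that fell was Nop56, a host gene that also encodes a core protein of snoRNA particles, from 160 and 155 to 105 and 105 CPM (log2 fold change -0.59, SE 0.14, edgeR adjusted p = 0.0467). Without CD mouse 2, 4 hosts were higher and 1 lower. The call of Nop56 ended without HFD mouse 1 (0.29), HFD mouse 2 (0.239) and CD mouse 1 (0.0639). Non-coding hosts with the smallest p lay higher on the high-fat diet, Snhg18 with 5.21 and 6.33 against 1.91 and 2.9 CPM (adjusted p = 0.0509) and Snhg20 with 5.5 and 6.38 against 2.93 and 3.06 CPM (adjusted p = 0.0518). Snhg17 had 21.8 and 25.1 against 17.2 and 14.7 CPM (adjusted p = 0.0907). DESeq2 called Nop56 (adjusted p = 0.0206), Snhg18 (0.012) and Snhg20 (0.0308), and not Snhg17 (0.0924). Zfas1, a host that resembles Gas5 in structure, had 39.2 and 42.8 against 38.3 and 41.3 CPM (adjusted p = 0.865).

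The machinery around the hosts gave 1 edgeR call in each list, where 10.5% of all tested genes were called. Of 19 proteins of snoRNA particles and their assembly 0 rose and 1 fell, Nop56, and the median was 0.04. Nufip1, an assembly factor, had 22 and 26.4 against 36.2 and 34.1 CPM (adjusted p = 0.0786), and Dkc1, the pseudouridine synthase, had 50.2 and 42.4 against 34.6 and 32.5 CPM (adjusted p = 0.1). Of 20 factors of nonsense-mediated decay 1 rose and 0 fell, with a median of -0.16. Upf3b, which links exon junctions to the decay machinery, rose from 11.1 and 14.3 to 22.4 and 23.7 CPM (log2 fold change 0.86, SE 0.19, edgeR adjusted p = 0.0415). Its call ended without HFD mouse 1 (0.179), HFD mouse 2 (0.176) and CD mouse 1 (0.0519). The kinase gene Smg1 had 183 and 160 against 242 and 306 CPM (adjusted p = 0.0628). DESeq2 called Upf3b (adjusted p = 0.00689) and Smg1 (0.0202), and not Nbas (0.149). The helicase gene Upf1 had 162 and 161 against 204 and 195 CPM (adjusted p = 0.189).

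Mir155hg was the least counted of the 10. It had 33 and 13 counts in the HFD and 16 and 22 counts in the CD libraries, or 0.881 and 0.339 against 0.493 and 0.591 CPM. The HFD mice gave both the highest and the lowest value. The log2 fold change was 0.16 with an interval from -1.23 to 1.56 (SE 0.58, edgeR adjusted p = 0.871), an interval that includes a change of 2-fold in either direction. The sign followed which HFD mouse was kept, with -0.66 without mouse 1 and 0.72 without mouse 2. The gene lies on chromosome 16 from 84703167 to 84715245, and the row of the precursor Mir155 inside it held 0 counts in every library. PolyA RNA holds the host transcript and not the mature microRNA shown above.

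Genes that process microRNAs or are described as targets of miR-155 gave 1 higher and 3 lower calls by edgeR among 28 tested. Of all tested genes 2.61% were called higher and 7.91% lower. The median log2 fold change of the 28 was -0.17. Socs1, which restrains cytokine receptor signalling and is a textbook target, fell from 217 and 107 to 35.1 and 28.8 CPM (log2 fold change -2.34, SE 0.34, edgeR adjusted p = 0.0191). Jarid2, a partner of Polycomb, fell from 213 and 121 to 70 and 69.9 CPM (adjusted p = 0.0406), and Arl5b fell from 39.1 and 31.5 to 17 and 15.9 CPM (adjusted p = 0.0212). The transcription factor gene Maf rose from 119 and 192 to 349 and 353 CPM (log2 fold change 1.17, SE 0.24, adjusted p = 0.0375). These calls ended without either HFD mouse (adjusted p from 0.0821 to 0.214), and without CD mouse 1 the log2 fold change of Socs1 was -1.74. The nucleases Drosha, with 52.7 and 55.7 against 51.6 and 40.8 CPM (adjusted p = 0.378), and Dicer1, with 62.2 and 57 against 70.8 and 75.7 CPM (adjusted p = 0.201), were not called. The target Spi1 had 426 and 438 against 534 and 429 CPM (adjusted p = 0.569). Of 25 immediate early and NF-kB genes, which include regulators of Mir155hg, 0 rose and 7 fell, with a median of -0.77. Without HFD mouse 1 there were 3 that fell, without HFD mouse 2 there were 4, and without CD mouse 2 there were 19 and 1 that rose.

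Pvt1 spans 340 kb on chromosome 15 from 62037986 to 62378096, with Myc 47.6 kb before its start. Pvt1 was chosen as a microRNA host, but among the identifiers counted 0 microRNA genes lay inside it on its strand. It had 9 and 12 CPM in the HFD and 5.95 and 11.1 CPM in the CD libraries. The diets overlapped, because CD mouse 2 lay above HFD mouse 1. The log2 fold change was 0.30 (SE 0.33, interval -0.51 to 1.11, edgeR adjusted p = 0.573), and fits without 1 library ran from -0.07 without CD mouse 1 to 0.82 without CD mouse 2. Myc had 124 and 143 against 98.5 and 108 CPM with no overlap (log2 fold change 0.37, SE 0.15, adjusted p = 0.158). Of the 4 tested genes of the Myc and Pvt1 neighbourhood edgeR called 0, with a median of -0.07, and Asap1, Adcy8 and Fam49b had log2 fold changes of -0.11, -0.24 and -0.03. The 20 targets of p53, which also acts on Pvt1 and Neat1, had a median of 0.00. Of them 2 rose and 4 fell by edgeR, where 2.61% and 7.91% of all tested genes did. None of these 6 calls held without HFD mouse 1 (edgeR adjusted p from 0.0557 to 0.217), and 2 held without HFD mouse 2.

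Per length of exon the 10 RNAs fell in another order than by CPM. In RPKM, the TMM-scaled CPM per kb of annotated exon, Malat1 led with 178 to 433 over the 4 libraries, followed by Norad with 21.9 to 29. Next were Snhg1 (12.5 to 20.1), Neat1 (10.2 to 13.9), Gas5 (9.49 to 12.3) and Snhg15 (7.87 to 12.5), of which each overlapped the next. Snhg12 (5.76 to 7.31) and Pvt1 (0.85 to 1.72) stood apart from their neighbours in this order. Mir155hg (0.236 to 0.615) and Kcnq1ot1 (0.112 to 0.375) overlapped at the bottom. Lengths are those of the GENCODE models, and for Malat1, Neat1, Snhg12 and Kcnq1ot1 the table's identifier has an older version, whose length may differ. They join the exons of all annotated transcripts of a gene. For Snhg1 and Snhg12 these cover the whole gene, and for Gas5 3760 of its 4118 bases. Neat1 was divided by the 20771 bases of its long form. The order may therefore differ from that of the RNA molecules present.

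The protein-coding genes beside the 10 RNAs gave 2 calls by edgeR among 16 tested, Kcnq1 and Serpinc1, a share near the 10.5% of all genes. Serpinc1, the antithrombin gene, lies 28.6 kb from Gas5 and fell 38.8-fold, from 104 and 119 counts in the CD to 4 and 2 counts in the HFD libraries (log2 fold change -5.28, 95% interval -6.40 to -4.16, edgeR adjusted p = 0.00637). Zbtb37, which overlaps the start of Gas5 on the other strand, had a log2 fold change of 0.14 (adjusted p = 0.625). Slc3a2, an amino acid transporter chain whose start lies 0.106 kb from that of Snhg1 on the other strand, had 339 and 399 against 617 and 490 CPM (log2 fold change -0.58, SE 0.19, adjusted p = 0.095). Snhg1 and Slc3a2 each lay lower in both HFD than in both CD libraries, as 31.6% of all tested genes did, and neither was called. Myo1g, a myosin gene of leukocytes 4.63 kb from Snhg15, had 199 and 179 against 327 and 245 CPM (-0.60, adjusted p = 0.0932). Frmd8 beside Neat1 had 53 and 62.8 against 88.3 and 70.7 CPM (-0.46, adjusted p = 0.139). Further neighbours, Epb41l1 and Cnbd2 of Norad, Trnau1ap of Snhg12, Ccm2 of Snhg15 and Mrpl39 of Mir155hg, had log2 fold changes from -0.36 to 0.11 and adjusted p from 0.531 to 0.927.

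**Figure D3:**
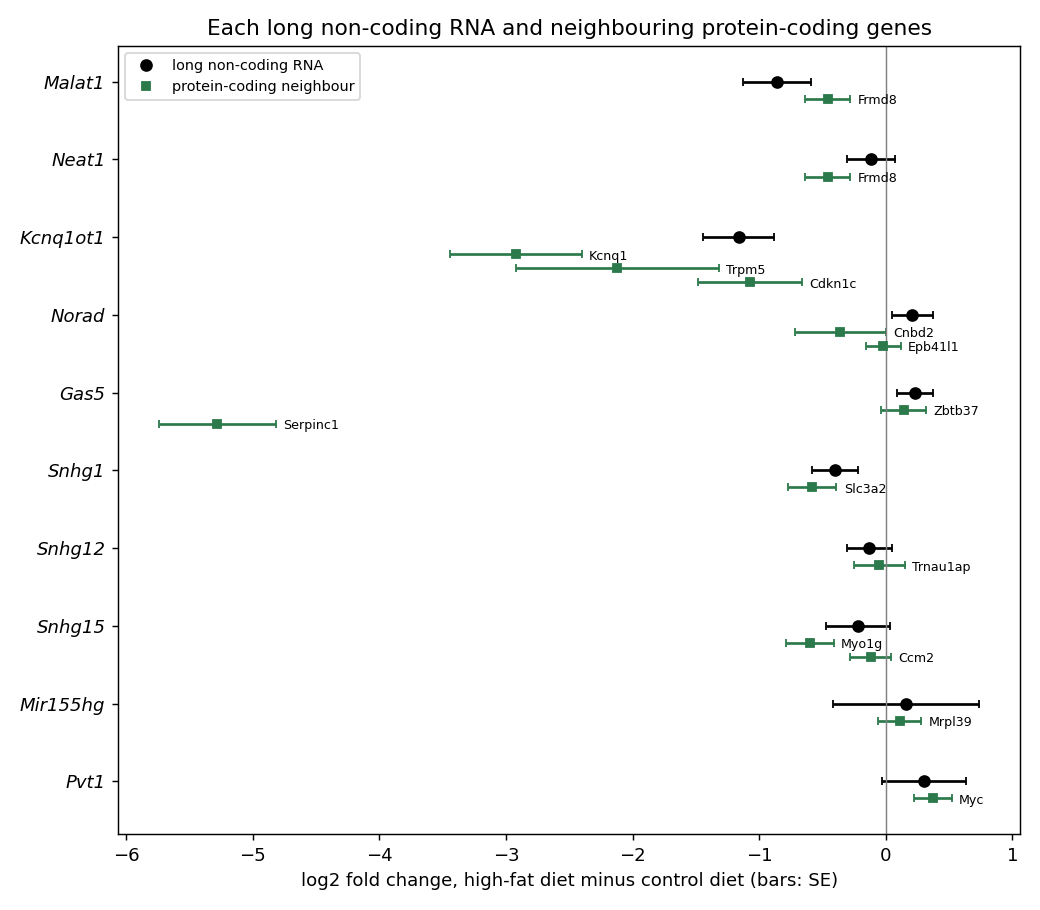
Log2 fold changes of high-fat diet minus control diet with SE for each long non-coding RNA (black circles) and neighbouring protein-coding genes described here (green squares, named). Kcnq1, Trpm5 and Cdkn1c lie on the same side as Kcnq1ot1, Serpinc1 stands alone at -5.28, and the remaining neighbours drawn lie between -0.60 and 0.37.

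Genes with the pattern over the 4 libraries most like each RNA were taken from 9183 named genes of average log2 CPM of at least 3, by the root mean square difference of centred log2 CPM. With 4 libraries many genes come close, and the measure describes these libraries only. For Malat1 the nearest were Icam2 (difference 0.059), Dst (0.092) and Macf1 (0.093), of which Dst and Macf1 encode giant cytoskeletal linkers. Macf1 had 402 and 336 CPM in the HFD and 575 and 876 CPM in the CD libraries. For Kcnq1ot1 they were Lrrc4 (0.124), Insig1 (0.148) and Macf1 (0.149), and just 9 genes lay within 0.2. For Mir155hg they were Iigp1 (0.067), Gbp6 (0.077) and Gbp7 (0.089), all GTPases induced by interferon-gamma, and 24 genes lay within 0.2. Iigp1 had 366 and 148 against 204 and 228 CPM. Its order, HFD mouse 1 highest and mouse 2 lowest, follows from the choice by likeness. Mir155hg held 13 to 33 counts, so counting error also enters these differences.

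For Pvt1 the nearest were Dtx4 (0.050), Siglece (0.057) and Zfp395 (0.078), with 100 genes within 0.2. For Snhg15 they were Nfkbid (0.023), Tnfrsf21 (0.029) and Arhgap23 (0.032), all highest in CD mouse 1 like Snhg15, which follows from the choice by likeness. The flatter RNAs had many genes within 0.2, from 1138 for Snhg1 to 3562 for Gas5. The closest were Cnbp to Norad, Lrrc14 to Gas5, Map3k2 to Snhg1, Ticam1 to Snhg12 and Sema6b to Neat1.

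Of 28 other named long non-coding RNAs and microRNA hosts tested, 3 rose and 3 fell by edgeR, where 10.5% of all genes were called, and the median log2 fold change was 0.30. The difference from the 0 calls among the 10 RNAs was not tested. H19, an imprinted RNA of growth control, rose from 195 and 143 to 446 and 474 CPM (log2 fold change 1.44, SE 0.20, edgeR adjusted p = 0.0163). Mir100hg rose from 2.56 and 2.74 to 8.44 and 6.67 CPM (adjusted p = 0.0243), and Oip5os1, also called Cyrano, rose from 60.9 and 74.1 to 156 and 110 CPM (adjusted p = 0.0416). Lncpint, an RNA induced by p53, fell from 5.61 and 6.72 to 0.454 and 0.964 CPM (log2 fold change -3.11, SE 0.40, adjusted p = 0.0144). Trp53cor1, which lies beside Cdkn1a, fell from 4.32 and 4.68 to 1.6 and 1.17 CPM (adjusted p = 0.027), and Sra1, known as an RNA coactivator but annotated here as protein-coding, fell from 141 and 125 to 66.5 and 75.2 CPM (adjusted p = 0.0256). H19 and Lncpint were called in each fit without 1 library, and the log2 fold change of Lncpint was -3.73 without HFD mouse 2. Without CD mouse 2, 7 of the list were higher and 6 lower. The calls of Mir100hg, Sra1 and Trp53cor1 ended without either HFD mouse (adjusted p from 0.0662 to 0.163), and that of Oip5os1 without HFD mouse 1 (0.189) and CD mouse 1 (0.0587). Tug1 had 107 and 80.6 against 65.6 and 75.6 CPM (adjusted p = 0.189).

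**Figure D4:**
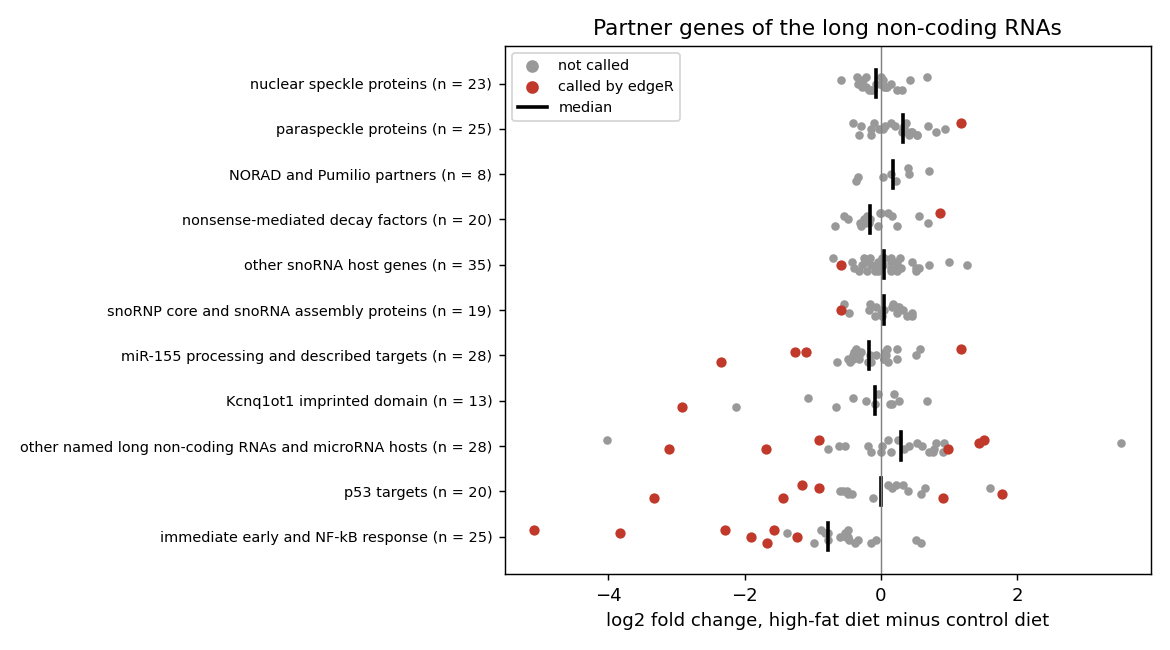
Each point is the log2 fold change (high-fat diet minus control diet) of 1 tested gene in the named list, red where edgeR called it, and black bars are medians. Lists of speckle, paraspeckle, Norad, decay and snoRNA genes have medians from -0.16 to 0.32, with single genes further out, such as Snhg18 at 1.26. Immediate early and NF-kB genes have a median of -0.77.

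Long non-coding genes as an annotated class leaned to lower values on the high-fat diet. Of 2305 tested, 20 (0.868%) were called higher and 304 (13.2%) lower, with a median log2 fold change of -0.40. Among 2203 with an average log2 CPM below 3 the median was -0.44, and 16 (0.726%) were higher and 293 (13.3%) lower. Protein-coding genes below that level had a median of 0.07, with 155 (3.61%) higher and 561 (13.1%) lower among 4289. The shares called lower were thus near each other below that level, while the medians and the shares called higher differed. Among the 102 long non-coding genes at or above it, the median was 0.02, with 4 higher (3.92%) and 11 lower (10.8%), where protein-coding genes of that level had 3.08% higher and 5.25% lower. Of that level are 9 of the 10 followed here, all but Mir155hg. Without HFD mouse 1 there were 3 higher and 51 lower long non-coding genes, and without HFD mouse 2 there were 6 and 48. Without CD mouse 2 there were 144 and 400, and DESeq2 gave 40 and 318. By class, TEC genes had a median of -0.77, sense intronic genes -0.67, antisense genes -0.41, lincRNAs -0.28, processed transcripts 0.10 and genes of bidirectional promoters 0.10.

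**Figure D5:**
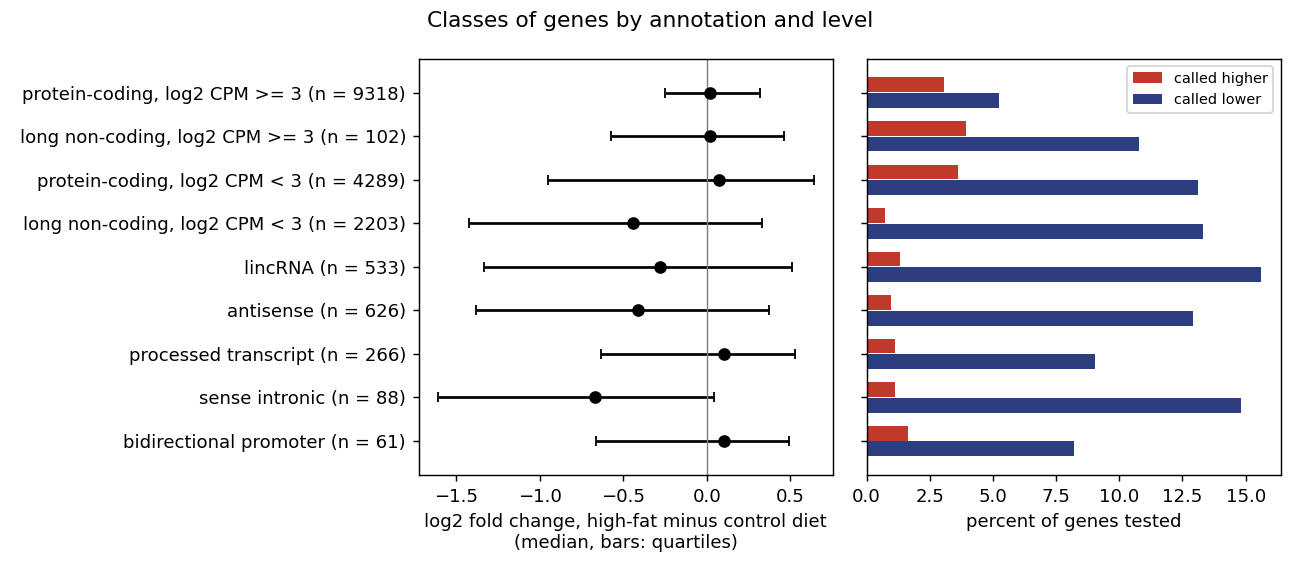
Left, median log2 fold change (high-fat diet minus control diet) with quartiles for classes of genes by annotation and average log2 CPM, and right, the percent of each class called higher (red) or lower (blue) by edgeR. The long non-coding genes below a log2 CPM of 3 have a median of -0.44, while those at or above it have 0.02, like protein-coding genes of that level.

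Markers of other cells differed between the libraries, and their part in the values of the 10 RNAs was not tested. Of all tested genes, edgeR called 2.61% higher and 7.91% lower. Summed CPM of neutrophil markers was 193 and 171 in the HFD and 395 and 193 in the CD libraries (7 of 10 called lower). Fibroblast and pericyte markers summed to 2068 and 2062 against 1042 and 781 CPM (7 of 12 higher), and epithelial and tumour cell markers to 41.4 and 48.1 against 165 and 139 CPM (8 of 9 lower). Dendritic cell markers summed to 35.1 and 42.7 against 102 and 64.9 CPM (2 of 8 lower), T and NK cell markers to 41.7 and 38.4 against 101 and 28.7 CPM (1 of 12 higher). B cell markers summed to 201 and 187 against 113 and 223 CPM (1 of 5 lower), and endothelial markers to 42.2 and 57.8 against 91.5 and 51.3 CPM (0 of 4 called by edgeR). No gene of these lists was at 0 in all libraries. With either HFD library left out, the neutrophil, epithelial and dendritic lists had 1 lower gene each, and 6 T and NK cell markers were lower without CD mouse 2. Mitochondrially encoded transcripts summed to 24707 and 14360 against 6510 and 9523 CPM (2 of 7 higher, 0 without HFD mouse 1 or CD mouse 1, 5 without HFD mouse 2 and 4 without CD mouse 2). Of the 13, mt-Atp6, mt-Atp8, mt-Co2, mt-Co3 and mt-Nd4l are listed at 0 in every library although all cells use them, so a 0 in this table need not mean that an RNA is absent. Of these sums, only that of B cell markers was highest in CD mouse 2, where Malat1 and Kcnq1ot1 were highest.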

How the data were processed

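Sorted tumour macrophages from 2 mice per diet were profiled by stranded polyA RNA-seq (TruSeq Stranded mRNA, per the labels' protocols). The deposited table holds raw read counts per Ensembl gene from the authors, and the submitters' processing notes name cutadapt 1.15, FastQC 0.11.5, BWA 0.7.12, DESeq2 1.24.0, GRCm38 and mm10. The sources used here do not give the counter, its strand setting, how multiply mapped reads were treated or which annotation was used. Libraries held 36898146 and 37147582 (high-fat diet) and 34148682 and 37159552 counts (control diet).

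Of the 53379 identifiers, 53274 received a symbol from GENCODE mouse release 21 or RefSeq (GRCm38), and 94.8% had the same version there. Genes were filtered with filterByExpr (minimum count 10, minimum total 15), scaled by TMM and tested with edgeR 4.0.16 in R 4.3.3, by a robust quasi-likelihood fit on diet alone, with Benjamini-Hochberg adjustment over 18422 genes. SE is the log2 fold change divided by the root of F, and intervals are 95%. The median residual plus prior degrees of freedom was 6.223. The 10 RNAs, the gene lists and the named genes were chosen with earlier results of these data known. Named are the 10 RNAs, their neighbours, called or leading genes of the lists and the 3 genes nearest in pattern. The code was tested on simulated counts. Alternatives were DESeq2 1.42.0, other scaling and filters, a replicate block and leaving out each library. A few neighbour and partner genes, included in counts, are not reported here by name.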

Additional observations from a re-analysis of the deposited data

How the results depend on the processing

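Numbers of calls depended on the settings more than fold changes did. Against 480 higher and 1457 lower genes, DESeq2 gave 1080 higher, no filter on low counts 1552 higher and 2231 lower, a filter of 1 CPM in 2 libraries 305 higher, and fits without 1 library 71 to 1934 higher and 300 to 2534 lower. Of the 10 RNAs, 0 were called lower by edgeR, and 2 by DESeq2, 2 with no filter, 1 with the replicate block and 0 to 2 without 1 library. None was called higher under any of these settings. Against 20 higher and 304 lower long non-coding genes, a count added after seeing the data, DESeq2 gave 40 higher, no filter 88 and 510, the 1 CPM filter 11 and 173, and fits without 1 library 3 to 144 and 48 to 401. The causes were not tested. Mir155hg was not tested under the 1 CPM filter. With the replicate block, 567 genes were higher and 1481 lower, with 25 and 311 long non-coding genes. The mouse numbers are not known to pair animals across diets, and deviations of same-numbered mice had a correlation of -0.188 over 10312 genes.

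Signs turned for values near 0, of which those of partner and neighbour genes, like the list counts without 1 library, were added after seeing the data. In fits without 1 library the log2 fold change ran from -0.34 to 0.10 for Neat1, -0.66 to 0.72 for Mir155hg, -0.52 to 0.15 for Snhg15 and -0.07 to 0.82 for Pvt1. It ran from -0.19 to 0.15 for Fam49b, -0.11 to 0.07 for Epb41l1, -0.23 to 0.16 for Trnau1ap, -0.30 to 0.11 for Asap1 and -0.67 to 0.36 for Adcy8. Scaling by library totals gave 0.04 for Fam49b, 0.05 for Epb41l1 and 0.03 for Trnau1ap, and no filter gave 0.01 for Fam49b and 0.02 for Epb41l1. Of 99 values of the 10 RNAs under the alternatives, 87 kept direction and side of the threshold, 8 passed it and 4 turned sign. Mir155hg had the fewest counts of the 10, 13 to 33. Fits without 1 library leave a diet with 1 mouse, which is assumed to vary like the other.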
